A study of Mus musculus with 74 samples.

Results

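Among 74 single cells of the mouse pro-epicardial organ at embryonic day 9.5, 32 held at least 5 estimated counts of Hcn4, and these were split by Isl1. The comparison sets 11 Isl1-positive cells, with at least 5 Isl1 counts, against 21 Isl1-negative cells, with fewer than 5. Both groups were thus chosen by their own Isl1 and Hcn4 values, so these 2 genes describe the split and are not among the findings. Every cell was sorted by flow cytometry after dissociation of the organ from C57BL/6 embryos that carried Tbx18Cre and the mTmG membrane reporter. Tbx18 drives the Cre, which marks cells with past or present activity of that gene. The labels describe the cells of both groups as marked in this way but do not state the sorting gate. No cell was treated and there was no control group. Since no label ties a cell to an embryo or a litter, the 74 cells counted as 1 sample and were not tested against each other. Beside means stands the standard deviation (SD) over cells. Beside shares of cells stand exact Clopper-Pearson intervals at 95%, which cover counting error only. Neither covers differences between embryos, and reads without molecular identifiers are not independent molecules.

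Isl1 is a LIM homeodomain transcription factor of second heart field progenitors, which add muscle to the growing heart, and it persists in the sinus venosus and the sinoatrial node after it has been lost from working muscle. Hcn4 is the main channel of the pacemaker current, and Shox2 is a homeodomain factor needed for the sinus venosus and for pacemaker fate. The pro-epicardial organ grows on the sinus venosus, beside the septum transversum, and sinus muscle and pro-epicardium both arise from Tbx18-expressing precursors. A dissected organ can thus hold inflow muscle, mesothelium and mesenchyme side by side.

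In GRCm38, Isl1 lies on chromosome 13 (116298281 to 116309689, minus strand), Hcn4 on chromosome 9 (58823412 to 58863175, plus strand) and Shox2 on chromosome 3 (66971727 to 66981771, minus strand). The split did not pass through a crowd of cells. The Isl1-positive cell with the fewest Isl1 counts had 21, whereas the negative cells held 4 counts in 1 cell, 2 counts in another and 0 in the other 19. For Hcn4, the lowest cells kept had 6, 7 and 15 counts. The 5 cells left out with any Hcn4 had 1, 2, 3, 4 and 4 counts, and the remaining 37 had none. Isl1 reached 5 counts in 34.4% of cells with Hcn4 (18.6% to 53.2%, n = 32) and in 7.14% of those without it (1.498% to 19.5%, n = 42). Read the other way, Hcn4 was present in 78.6% of the 14 Isl1-positive cells (49.2% to 95.3%) and in 35.0% of the 60 Isl1-negative cells (23.1% to 48.4%).

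**Figure D1:**
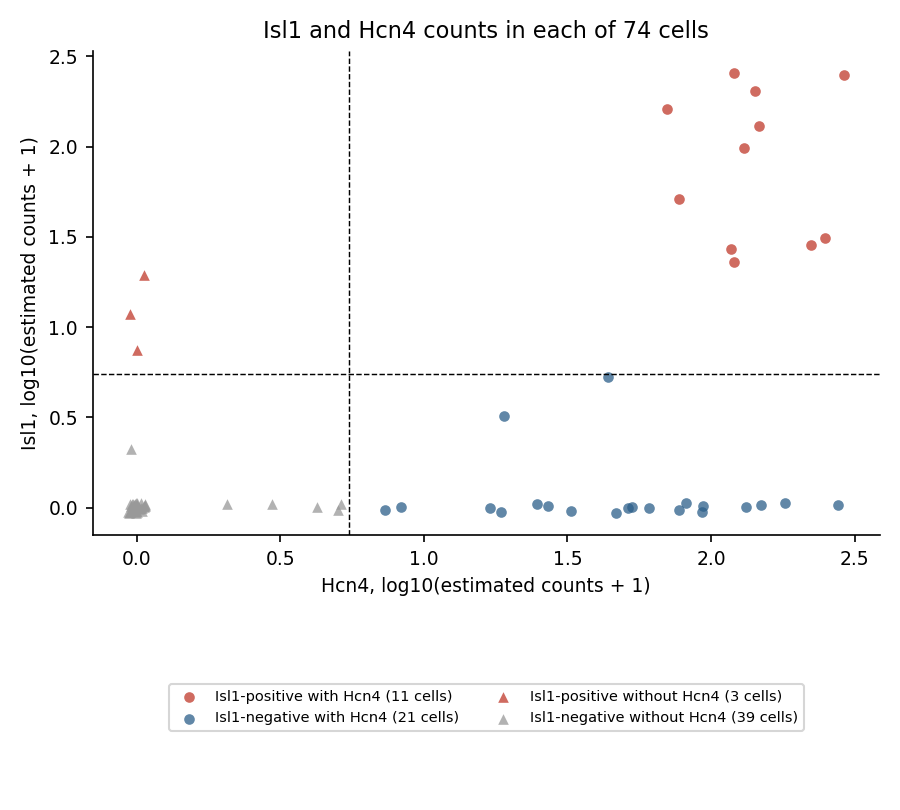
Each point is 1 of 74 cells, with Hcn4 on the horizontal and Isl1 on the vertical axis, both as log10(estimated counts + 1) with a little jitter, and dashed lines mark the limit of 5 counts. The 11 red circles at upper right have at least 21 Isl1 counts, and 19 of the 21 blue circles lie at 0 Isl1 counts.

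Values are CPM, the count of a gene divided by the total count of the cell and scaled to a common depth, and a gene is said to be found in a cell at 5 or more counts. Isl1 in the positive cells ran from 21.8 to 443 CPM with a median of 131, a wide range within the group. The same 11 cells also had more Hcn4, at 193 ± 78.2 CPM (SD; 59.5 to 363) against 70.6 ± 53.6 (7.25 to 176) in the 21 negative cells, with overlap between the groups. Total counts of the 32 cells overlapped as well, at 829086 ± 305760 in positive and 1017220 ± 431347 in negative cells. In the whole series totals ran from 216177 to 2618538. The positive cells had 9082 ± 592 genes with a count and 2.46% ± 0.807 mitochondrial counts, beside 9340 ± 518 genes and 1.98% ± 0.805 in the negative cells.

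Cells with both genes differed from those with Hcn4 alone first of all in muscle genes, which were higher, and in epicardial and mesenchymal genes, which were lower. To be called, a gene had to differ 2-fold in (mean CPM + 1), both with all cells and without the highest cell of the higher group. Of 8921 genes with a mean of at least 10 CPM over the 32 cells and at least 5 counts in at least 3 of them, 248 (2.78%) were called higher in Isl1-positive cells and 467 (5.23%) lower. The median log2 difference of all these genes was -0.10. These limits set a size and are no test. A gene of low level could enter only through the group where it is high, so the count of a list describes those of its members that entered. Without cell 71, the Isl1-positive cell of lowest Actc1, 285 genes were called higher and 605 lower.

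**Figure D2:**
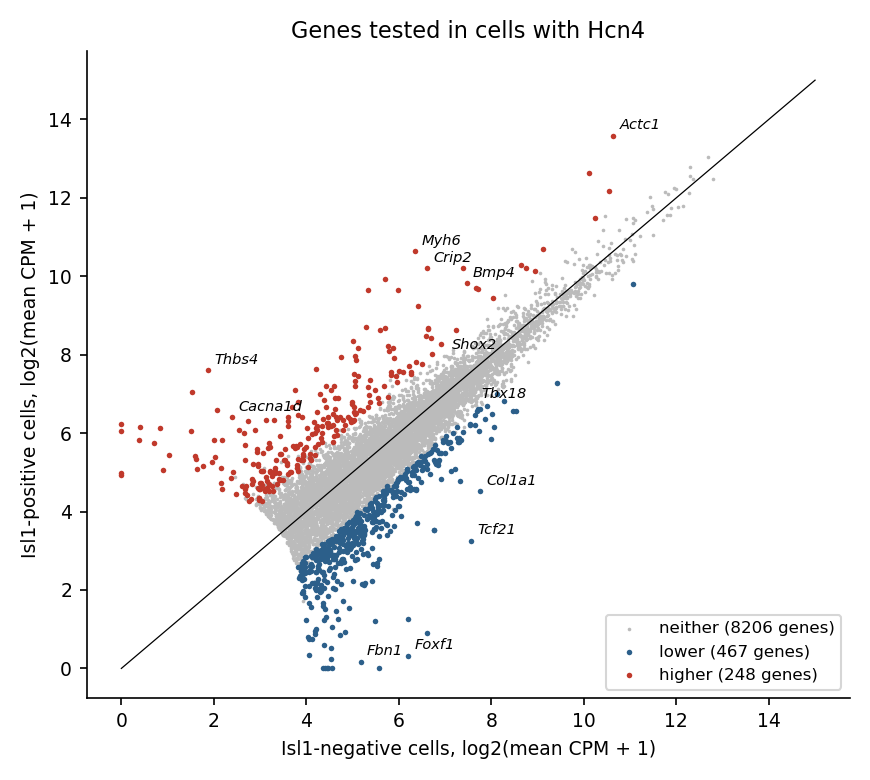
Each point is 1 of the 8921 genes tested, with the mean of the 21 Isl1-negative cells on the horizontal and of the 11 Isl1-positive cells on the vertical axis, both as log2(mean CPM + 1). Red genes (248) were called higher and blue genes (467) lower, with Myh6 and Actc1 above the line of equality and Tcf21, Col1a1 and Foxf1 far below it.

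Pacemaker and inflow transcription factors differed little as a group. Of 14 members tested (18 in the list), 2 were higher, 1 was lower and 11 were neither, with a median log2 difference of -0.10. Shox2 was at 251 ± 107 CPM in positive cells (lowest 33.7, median 279, highest 410) and 128 ± 110 in negative cells (0, 108 and 503). It reached 5 counts in 11 of 11 and 19 of 21 cells. The groups overlapped over almost the whole range, so Shox2 did not separate them, and the log2 difference was 0.96, just under the 2-fold limit. Leaving out each Isl1-positive cell in turn gave 0.87 to 1.08, on both sides of that limit. The highest negative value came from cell 75, which held 4 Isl1 counts. Tbx18, which names the lineage, was at 105 ± 85.8 CPM in positive and 199 CPM in negative cells, a log2 difference of -0.92 that also missed the limit. It reached 5 counts in 8 of 11 positive cells and 21 of 21 negative cells.

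Tbx20, a T-box factor of heart muscle, was higher. It ran from 18.0 to 269 CPM (median 104) in positive and from 0 to 150 (median 16.2) in negative cells, with means of 109 ± 75.6 and 30.9 ± 37.5, a 3.46-fold difference, and 3 positive cells lay above every negative cell (chromosome 9, 24718138 to 24774303, minus strand). Tbx3, which holds the pacemaker programme and represses working muscle genes, was called higher at 28.1 ± 55.4 against 4.19 ± 9.76 CPM. Cells 18 and 74 held 142 and 136 CPM, the other positive cells at most 21.8, and the median was 0 in both groups. Tbx5 was at 196 ± 96.1 and 139 ± 131 CPM (log2 difference 0.49).

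Nkx2-5, a factor of working heart muscle, was too low over all cells to be tested. It reached 5 counts in 4 of 11 positive cells, with at most 90.7 CPM, and in 0 of 21 negative cells (upper limit 14.3%). Hand1 was lower, at 0.833 against 17.1 CPM, with 5 counts in 1 of 11 and 8 of 21 cells. The cardiac factors Gata4, Gata5, Gata6 and Hand2 were at like levels in both groups, with log2 differences of -0.41, -0.25, -0.22 and 0.01, and Id2 (-0.62), Nr2f2 (-0.35) and Tbx2 (0.84) also missed the limits. Across all 81 transcription factor genes tested from the families named in the methods, 3 were higher and 10 lower. Over all 8921 genes tested the shares were 2.78% and 5.23%. The third higher factor beside the T-box pair was the inhibitor Id4, at 89.5 ± 81.2 and 22.7 ± 40.9 CPM.

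**Figure D3:**
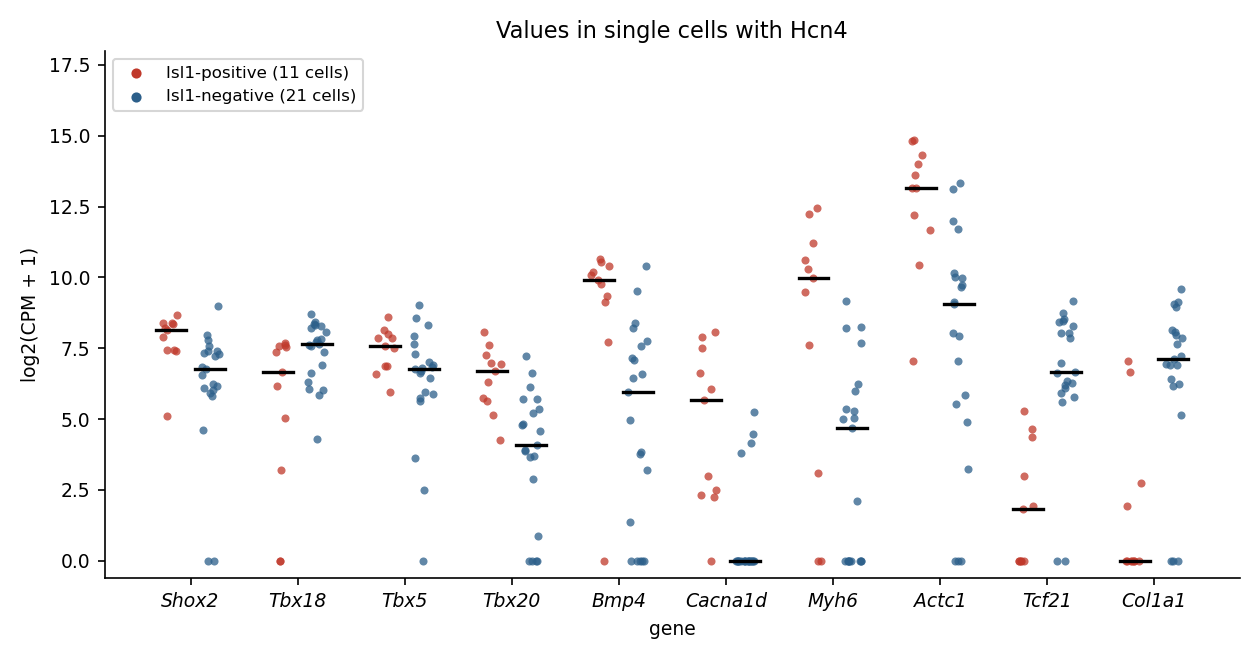
Each point is a cell with Hcn4, red for the 11 Isl1-positive and blue for the 21 Isl1-negative cells, with the gene on the horizontal axis, log2(CPM + 1) on the vertical axis and a bar at the median. Shox2 overlaps between the groups over almost the whole range, whereas Myh6 lies above every negative cell in 7 positive cells and Tcf21 is at or below 37.9 CPM in all 11.

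Of the channel and calcium genes 5 of 13 tested (27 in the list) were higher and none lower, with a median log2 difference of 1.02. Cacna1d (chromosome 14, 30039939 to 30491455, minus strand), an L-type calcium channel of pacemaker cells, differed most. It was found in 8 of 11 positive cells (0 to 268 CPM, median 50.0) and 4 of 21 negative cells (0 to 37.5 CPM, median 0). The means were 84.0 ± 101 and 4.23 ± 9.85 CPM, a log2 difference of 4.02, and 6 positive cells lay above every negative cell. Genes of calcium cycling were also higher: the sodium-calcium exchanger Slc8a1 (84.3 ± 79.8 against 21.1 ± 26.05 CPM, log2 difference 1.95), the calcium pump Atp2a2 (1.64) and the release channel Ryr2 (1.43). The T-type channel Cacna1h was higher by 1.94 on the log2 scale and was found in 6 of 11 and 4 of 21 cells.

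The other 8 were neither. Among them the connexin genes Gja1 and Gjc1, which code for gap junction proteins, had log2 differences of -0.11 and 0.10. Gja1 reached 5 counts in 5 of 11 positive and 19 of 21 negative cells while the means were close, since 1 positive cell, 71, held 485 CPM. The potassium channel gene Kcnh2 was at 124 ± 80.4 and 65.1 ± 45.8 CPM and Popdc2 at 483 ± 435 and 238 ± 168 CPM, both with wide overlap. Of the 14 list members not tested, Hcn2, Kcnd2 and Gja5 did not reach 5 counts in any of the 32 cells, for which the upper limit is 9.38%.

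Sarcomere genes were the list with the largest share called. Of 27 tested (30 in the list), 24 were higher, 0 lower and 3 (Tnni1, Des and Tpm1) neither, and the median log2 difference was 2.95. Myh6 (chromosome 14, 54941921 to 54966927, minus strand), an atrial myosin heavy chain, ran from 0 to 5553 CPM in positive cells (median 999) and from 0 to 578 in negative cells (median 24.7). Its means were 1587 ± 1932 and 80.5 ± 148 CPM, a 19.5-fold difference, and 7 of 11 positive cells lay above every negative cell. Ttn, the giant spring protein, had means of 976 ± 1176 and 51.1 ± 75.3 CPM, and the Z-disc protein Csrp3 had 806 ± 913 and 39.2 ± 90.6. Myl7, the atrial light chain, was at 6339 ± 5176 and 1109 ± 1146 CPM. Xirp1 was found in 5 positive cells and was at 0 in all 21 negative cells. Actc1, cardiac actin, ran from 131 to 29645 CPM in positive cells (median 9159) and from 0 to 10445 in negative cells (median 530). The groups overlapped in Actc1, and at least 1000 CPM was reached by 10 of 11 positive cells (90.9%, 58.7% to 99.8%) and 7 of 21 negative cells (33.3%, 14.6% to 57.0%).

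Of 12 chamber genes 4 were tested, with a median log2 difference of 1.04. The light chain gene Myl3 was higher, found in 3 of 11 positive cells and 1 of 21 negative cells. Fhl2 and Smpx, at log2 differences of 0.63 and 1.44, were neither. Natriuretic peptide gene Nppa reached 5 counts in 1 positive and 2 negative cells, and Nppb in 1 and 3.

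Promoters of sarcomere genes were searched because these genes were higher together, and those printed were picked among the ones with a marked motif. The promoters of Myh6 and Csrp3 held neither marked motif. All promoters are RefSeq sequences of GRCm38.p6, from 250 bases before to 50 bases after the transcript start, 5′ to 3′ on the gene's strand. The first listed start of each gene was used, and 7034 of the 8921 genes tested had an entry. Capitals mark a CArG box, the site bound by serum response factor, in Actc1 (minus strand, chr2:114052826-114053125), Myl7 (minus strand, chr11:5898733-5899032) and Myl3 (plus strand, chr9:110763428-110763727), and a MEF2 site in Ttn (minus strand, chr2:76982498-76982797) and Mybpc3 (plus strand, chr2:91117894-91118193).
Actc1: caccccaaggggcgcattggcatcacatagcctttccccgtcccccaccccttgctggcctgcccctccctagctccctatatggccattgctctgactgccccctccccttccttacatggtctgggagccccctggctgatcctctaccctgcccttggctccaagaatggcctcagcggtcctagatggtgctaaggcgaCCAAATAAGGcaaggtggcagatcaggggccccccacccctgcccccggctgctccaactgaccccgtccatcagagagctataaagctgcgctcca
Myl7: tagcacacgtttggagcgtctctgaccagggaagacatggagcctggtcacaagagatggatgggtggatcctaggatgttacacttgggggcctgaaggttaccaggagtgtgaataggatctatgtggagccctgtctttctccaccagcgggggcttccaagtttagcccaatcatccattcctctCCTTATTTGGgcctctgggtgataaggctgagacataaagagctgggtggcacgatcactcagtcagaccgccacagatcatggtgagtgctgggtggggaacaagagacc
Myl3: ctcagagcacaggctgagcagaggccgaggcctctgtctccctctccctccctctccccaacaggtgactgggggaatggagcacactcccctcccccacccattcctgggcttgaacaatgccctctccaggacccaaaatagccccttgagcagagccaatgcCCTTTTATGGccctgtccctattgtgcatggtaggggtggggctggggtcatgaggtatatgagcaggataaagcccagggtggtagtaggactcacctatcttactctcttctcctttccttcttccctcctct
Ttn: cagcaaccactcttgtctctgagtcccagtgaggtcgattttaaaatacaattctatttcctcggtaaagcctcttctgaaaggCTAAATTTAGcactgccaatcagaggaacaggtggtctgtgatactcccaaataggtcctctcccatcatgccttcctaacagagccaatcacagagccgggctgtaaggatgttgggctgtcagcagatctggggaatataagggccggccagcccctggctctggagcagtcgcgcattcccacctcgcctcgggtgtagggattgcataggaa
Mybpc3: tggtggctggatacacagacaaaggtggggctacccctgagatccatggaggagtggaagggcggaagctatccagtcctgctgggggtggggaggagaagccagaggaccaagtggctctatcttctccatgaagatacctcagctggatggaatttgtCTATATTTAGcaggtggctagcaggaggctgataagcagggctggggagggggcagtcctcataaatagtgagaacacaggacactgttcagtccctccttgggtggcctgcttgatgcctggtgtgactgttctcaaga
A CArG box was present in 6 of 20 promoters of sarcomere genes called higher, in 9 of 181 promoters of all genes called higher (4.97%), in 4 of 367 of those called lower (1.09%) and in 97 of all 7034 (1.38%). The MEF2 site was present in 2 of the 20, in 7 of the 181 (3.87%), 1 of the 367 (0.272%) and 29 of the 7034 (0.412%). CTAATG, a core that LIM homeodomain factors can bind, stood in 4.42% of promoters called higher, 4.09% of those called lower and 4.27% of those tested. A further 3 short motifs were counted in the promoters called higher, called lower and tested. The T-box core GGTGTGA stood in 5.52%, 3.00% and 2.99%, the GATA core AGATAA in 7.73%, 4.09% and 5.59%, and the TEAD core CATTCC in 17.1%, 11.2% and 11.2%. Both strands were searched for all motifs, and matches of different motifs may overlap. In the complete promoter table of 27025 genes, the CArG box was present in 1.57%, the MEF2 site in 0.566% and CTAATG in 7.43%. Matches describe letters in this window and are not binding sites.

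Epicardial and mesothelial genes were lower in Isl1-positive cells, with 11 of 18 tested (24 in the list) lower, 1 higher (Vcam1, a cell adhesion protein) and 6 neither, and a median log2 difference of -1.95. Tcf21 (chromosome 10, 22817281 to 22820174, minus strand), a bHLH factor of epicardial progenitors, ran from 0 to 37.9 CPM in positive (median 2.55) and from 0 to 569 in negative cells (median 99.8). The means were 8.58 ± 12.9 and 187 ± 160 CPM, a log2 difference of -4.29, with 5 counts in 4 of 11 and 19 of 21 cells. Wt1, a zinc finger factor of the epicardium, was at 14.8 ± 28.7 and 47.7 ± 51.7 CPM, but its log2 difference was -0.94 with at least 1000 CPM Actc1 and 1.28 from 3000 to 13000 CPM, neither called. Sox9 was at 12.1 ± 24.1 and 83.6 ± 153 and the mesothelial surface gene Lrrn4 at 1.39 ± 4.61 and 72.7 ± 125. Aldh1a2, which makes retinoic acid, had no count in any of the 11 positive cells (upper limit 27.3%) and was found in 6 of 21 negative cells. Podxl, a mesothelial surface sialomucin, was neither, at 70.2 ± 89.6 and 170 ± 328 CPM.

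Septum transversum genes were lower too, in 7 of 13 tested (16 in the list), with 1 higher and 5 neither (median log2 difference -1.37). Foxf1, a forkhead factor of splanchnic mesenchyme, reached 5 counts in 0 of 11 positive and 9 of 21 negative cells, and its highest values were 2.06 and 478 CPM. Lhx2, a LIM homeodomain gene of liver and septum mesenchyme, was found in 2 of 11 and 10 of 21 cells (3.67 ± 11.0 and 42.1 ± 73.5 CPM). The collagen gene Col1a1 had means of 22.1 ± 47.6 and 215 ± 211 CPM and 5 counts in 3 of 11 and 18 of 21 cells. Extracellular matrix genes overall were lower in 7 of 23, higher in 2 (Col4a2 and Nid2) and neither in 14. Fbn1, the microfibril protein fibrillin (chromosome 2, 125300594 to 125507993, minus strand), was not in that list. It reached 5 counts in 0 of 11 positive and 14 of 21 negative cells, with means of 0.128 and 35.2 CPM.

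**Figure D4:**
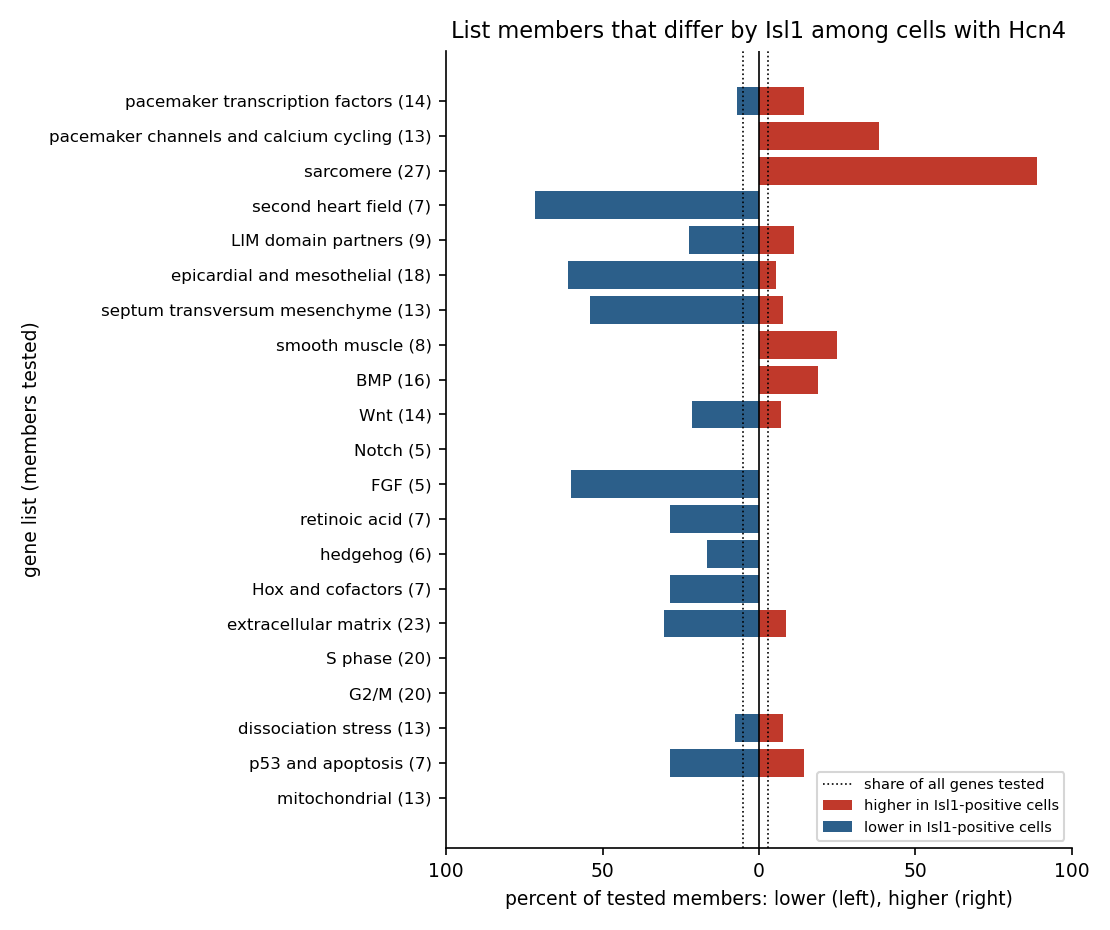
Bars give the percent of tested members called higher (red, right) or lower (blue, left) in Isl1-positive cells for each list with at least 5 tested members, whose number stands in brackets, and dotted lines mark 2.78% and 5.23%, the shares over all 8921 genes. Sarcomere genes (24 of 27) stand out to the right and epicardial genes (11 of 18) to the left.

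None of the early second heart field genes tested was called higher with Isl1. Of 7 tested (20 in the list), 5 were lower and 2 neither, and this list shares Foxf1, Aldh1a2, Fgf10, Wnt11 and Hoxb1 with lists given here for other tissues or pathways. Foxf1, Aldh1a2, Hoxb1 and Fgf10 had means of at most 0.674 CPM in positive cells, so they entered through the negative cells. With at least 1000 CPM Actc1 only 1 of the 7, Wnt11, was tested (-2.07, lower). From 3000 to 13000 CPM 0 were tested, so the list was not tested at a like level of Actc1. Hoxb1, the anterior Hox gene of posterior heart field cells, reached 5 counts in 0 of 11 and 9 of 21 cells. Fgf10, a growth factor of the field, reached 5 counts in 0 of 11 and 5 of 21. Osr1 did not reach 5 counts in any of the 32 cells, and Tbx1 and Fgf8 did so in 1 positive cell. Among LIM partners, the bridging cofactor Ldb1 was at 47.3 and 62.2 CPM (log2 difference -0.39). The LIM-only gene Lmo4 was lower (22.9 ± 20.0 and 71.9 ± 50.2), and Crip2, a LIM protein of muscle and vessels, was higher at 1175 ± 1442 against 97.2 ± 98.2 CPM, with 9 of 11 positive cells above every negative cell. Among Hox genes and cofactors 2 of 7 tested, Hoxb1 and Pbx3, were lower. Meis1 and Meis3 had log2 differences of -0.20 and 0.37. Meis2 was neither, at 26.8 ± 72.0 and 60.1 ± 72.2 CPM (log2 difference -1.14), and was found in 2 of 11 and 16 of 21 cells. Its highest positive value, 239 CPM, came from cell 71. With at least 1000 CPM Actc1, which leaves out cell 71, Meis2 was called lower (-3.68). It was also called lower from 3000 to 13000 CPM Actc1 (-2.80).

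In the BMP list 3 of 16 tested were higher, and the ligand Bmp4 (chromosome 14, 46383520 to 46390669, minus strand) had the largest difference of these. It ran from 0 to 1612 CPM in positive cells (median 968) and from 0 to 1349 in negative cells (median 61.8). Means were 908 ± 515 and 176 ± 319 CPM, a 5.13-fold difference, and 10 of 11 against 15 of 21 cells had at least 5 counts. Bmp7 and Id4 were the other BMP genes called higher, and 13 of 16 tested were neither. Bmp2, at 185 ± 277 and 61.9 ± 85.0 CPM, lost its 2-fold difference without its highest cell (log2 difference 0.80), and the responses Id1, Id3 and Smad6 had log2 differences of -0.21, -0.70 and 0.02. Wnt2 was higher (1129 ± 538 and 495 ± 504 CPM, log2 difference 1.19). Among cells with at least 1000 CPM Actc1 its log2 difference was 0.25, and from 3000 to 13000 CPM it was -0.25, neither called. Wnt11, Dkk1 and Fzd2 were lower, and 10 of 14 Wnt genes were neither. In the FGF list 3 of 5 (Fgf10, Fgfr2 and Dusp6) were lower, in the retinoic acid list 2 of 7 (Aldh1a2 among them), and in the hedgehog list Gas1, a co-receptor, at 80.5 ± 79.1 and 233 ± 179 CPM. None of 5 Notch genes was called in either direction over all cells with Hcn4. With at least 1000 CPM Actc1, 2 of the 5, Hes1 (-1.61) and Notch3 (-1.97), were lower. From 3000 to 13000 CPM 1 of them, Hes1 (-1.87), was lower. Of smooth muscle genes 2 of 8, Acta2 and Cnn1, were higher over all cells with Hcn4. Neither was called with at least 1000 CPM Actc1 (0.87 and 0.61, with 0 of 8 in the list), and from 3000 to 13000 CPM their log2 differences were -0.15 and -0.56. Over all cells with Hcn4 the cofactor gene Myocd was neither at 113 and 71.1 CPM.

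Mean levels of the neural and foregut lists were near 0, although the foregut gene Alb was found in some cells. Some endothelial and blood genes were found in many cells. None of 18 neural and motor neuron genes, a tissue where Isl1 is also used, was abundant enough to test, and 11 of them (Mnx1, Chat and others) did not reach 5 counts in any of the 32 cells. Their mean level, in log2(CPM + 1), ran from 0 to 0.298 in positive and from 0 to 0.557 in negative cells. For 15 foregut genes these ranges were 0 to 0.555 and 0 to 0.783, and Foxa2, Sox17, Cdh1 and 6 others did not reach 5 counts in any cell. Alb, the 1 foregut gene tested, was neither, at 9.22 ± 11.4 and 20.0 ± 53.9 CPM (log2 difference -1.04). It was found in 5 of 11 positive and 4 of 21 negative cells, with at most 30.6 and 213 CPM, and cell 75 held 138 CPM. For 16 endothelial and blood genes they were 0.410 to 1.41 and 0.175 to 1.45, and Cdh5, Emcn and Tal1 were among 6 that did not reach 5 counts in any cell. Of the 3 tested, Pecam1, an endothelial adhesion protein, was found in 9 of 11 positive and 20 of 21 negative cells (21.9 ± 20.1 and 14.8 ± 7.28 CPM). Hba-a1, a globin, was found in 6 of 11 and 8 of 21 (15.0 ± 20.6 and 9.65 ± 16.9 CPM). Tek, an endothelial receptor, was found in 4 of 11 and 13 of 21 and was lower at 10.1 ± 14.3 against 42.0 ± 47.3 CPM. Their part in the results was not tested.

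Cell cycle genes were not called, in 0 of 20 S phase and 0 of 20 G2/M genes, with medians of -0.55 each. The groups were mixed in this respect. The topoisomerase gene Top2a was at 665 and 672 CPM in positive cells 19 and 71 and at or below 294 in the other 9, and its detection was 7 of 11 and 17 of 21. Without cell 71, 10 of 20 G2/M genes and 2 of 20 S phase genes were called lower in the positive cells. The G2/M level, in mean log2(CPM + 1), was 3.70 ± 3.32 in positive and 5.73 ± 2.62 in negative cells. Of 13 stress genes Btg2 was higher and Dusp1 lower. In the list of p53 targets and apoptosis genes Ccng1 was higher and Phlda3 and Bcl2 lower, and 0 of 13 mitochondrial genes was called.

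Muscle content differed so much between the groups that the comparison was repeated in cells with at least 1000 CPM Actc1, 10 positive and 7 negative. Isl1 was present in 10 of these 17 cells (58.8%, 32.9% to 81.6%) and in 1 of 15 cells below the limit (6.67%, 0.169% to 31.9%). With a single Isl1-positive cell below it, no comparison could be made there. In the muscle-rich cells 442 of 8766 genes (5.04%) were higher and 321 (3.66%) lower. They included 157 of the 248 genes called higher in all cells, which is 63.3% of those and 35.5% of the 442, and 184 of the 467 lower genes (39.4% and 57.3%). The smaller comparison is part of the larger one.

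Sarcomere genes still differed among the muscle-rich cells, with 17 of 27 higher and a median log2 difference of 2.26, and Actc1 itself by 1.66. Of 12 epicardial genes still tested, 1 was higher and 1, Tcf21, lower, with a median of -0.93. Septum transversum genes were lower in 3 of 10 (Pdgfrb, Col1a1 and Col3a1) and higher in 0, with a median of -0.25. Cacna1d was at 91.9 ± 103 against 10.8 ± 14.9 CPM, Bmp4 at 998 ± 440 against 252 ± 499 and Tbx20 at 118 ± 73.0 against 32.1 ± 55.1, and each was called. Shox2 had a log2 difference of 0.55, and of the 12 channel and calcium genes tested in both comparisons Cacna1d alone was called. Cacna1c, the other L-type channel gene, was tested in the muscle-rich cells only and was higher there (log2 difference 3.10).

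In a band from 3000 to 13000 CPM, chosen after the single cells were seen, both groups held a like range of Actc1, in 5 positive and 4 negative cells. There Actc1 differed by 0.22 on the log2 scale, 446 of 8569 genes (5.2%) were higher and 449 (5.24%) lower. They included 67 of the 248 genes called higher in all cells, which is 27.0% of those and 15.0% of the 446. Of the 467 lower genes they included 136 (29.1%, and 30.3% of the 449), and 1 gene was called in the opposite direction. Sarcomere genes were higher in 6 of 23 with a median of 0.81, among them Actn2, Ttn, Csrp3, Nebl and Myo18b. Myh6, at 636 ± 527 and 305 ± 220 CPM (log2 difference 1.06), was not called, and neither was Tnnc1 (0.81). Epicardial genes were lower in 1 of 11 (Lrrn4) and higher in 1 (Krt19), and their median was -0.11. Septum transversum genes were lower in 2 of 10 (Pdgfrb and Col1a1) and higher in 1, with a median of -0.28. The higher one was Alcam, at 1.41, which was lower over all cells with Hcn4 (-1.51). None of 12 channel and calcium genes was called, and Cacna1h, Ryr2 and Atp2a2 turned to -0.10, -0.15 and -0.01. Cacna1d was at 39.6 ± 80.3 and 13.6 ± 17.8 CPM (log2 difference 1.48). Positive cell 78 held 183 CPM of it and positive cells 5, 14, 35 and 59 at most 6.89, while negative cells 13 and 75 held 37.5 and 16.9. Bmp4 was at 799 ± 529 and 422 ± 638 CPM and Tbx20 at 117 ± 92.6 and 51.9 ± 69.3, neither called. Lmo4, Sox9 and Btg2, at 0.23, 0.59 and -0.77, had the opposite sign to that over all cells with Hcn4 and were not called. Shox2 differed by 0.16 on the log2 scale and Tbx18 by -0.15. G2/M genes were lower in 10 of 20, with a median of -1.70. With so few cells, 1 cell can decide a call.

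Across all cells, the muscle-rich cells and the band, 62 of the 248 higher genes and 99 of the 467 lower genes were called each time. These 3 sets are nested and thus not independent. Over all 8569 genes tested in the band, 45 (0.525%) were higher and 81 (0.945%) lower in every positive cell than in any negative cell. Of the genes called in the band, selected by the same cells, 6.5% of those higher and 13.4% of those lower did not overlap. Of the 62 and 99 genes, 3 and 17 did not. Among the 62, Gnao1, a G protein subunit, did not overlap in the band. In the band it was found in 5 of 5 positive and 0 of 4 negative cells, at 58.8 ± 61.1 and 2.36 ± 3.00 CPM. Thbs4, a matrix glycoprotein, was found in 6 of 11 and 3 of 21 cells over the whole comparison (193 ± 369 and 2.66 ± 6.50 CPM), Rgs4, a brake on G protein signalling, in 5 of 11 and 0 of 21, and Prdm6, a smooth muscle regulator, in 10 of 11 and 9 of 21 (78.7 ± 65.1 and 11.2 ± 16.4 CPM). A related gene too low to test over all cells, Rgs6, was found in 6 of 11 and 0 of 21. Among the 99, Fbn1 did not overlap, at 0.282 ± 0.630 and 48.2 ± 37.5 CPM in the band. Col1a1 was at 1.13 ± 2.52 and 111 ± 106, and Gas1 at 78.9 ± 66.3 and 292 ± 110. Rgs4, Rgs6 and Prdm6, like Nkx2-5, Podxl and Col3a1, were picked after their values were seen.

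Some cells went against their group. Isl1-positive cell 71 had 52 Isl1 counts but Actc1 of 131 CPM, Myh6 of 0, Bmp4 of 0 and Shox2 of 33.7 CPM, each the lowest or equal lowest of the 11. It held Lhx2 at 36.8, Wt1 at 54.8, Col3a1 at 480 and Col1a1 at 133 CPM, and its septum transversum level of 5.29 was the highest of the positive cells. Isl1-negative cells 13 and 75 were opposite. Cell 13, with 0 Isl1 counts, had Actc1 of 10445, Bmp4 of 1349 and Hcn4 of 176 CPM, each the highest of the 21, together with Foxf1 of 167 CPM. Cell 75, with 4 Isl1 counts and thus just under the limit, had Actc1 of 8840 CPM and the highest Shox2 of all 32 cells (503 CPM). The 3 Isl1-positive cells without Hcn4 had 6, 19 and 11 Isl1 counts, Actc1 of 613, 0 and 13.9 CPM and Tcf21 of 413, 168 and 302 CPM, above the 37.9 CPM that no Isl1-positive cell with Hcn4 exceeded.

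**Figure D5:**
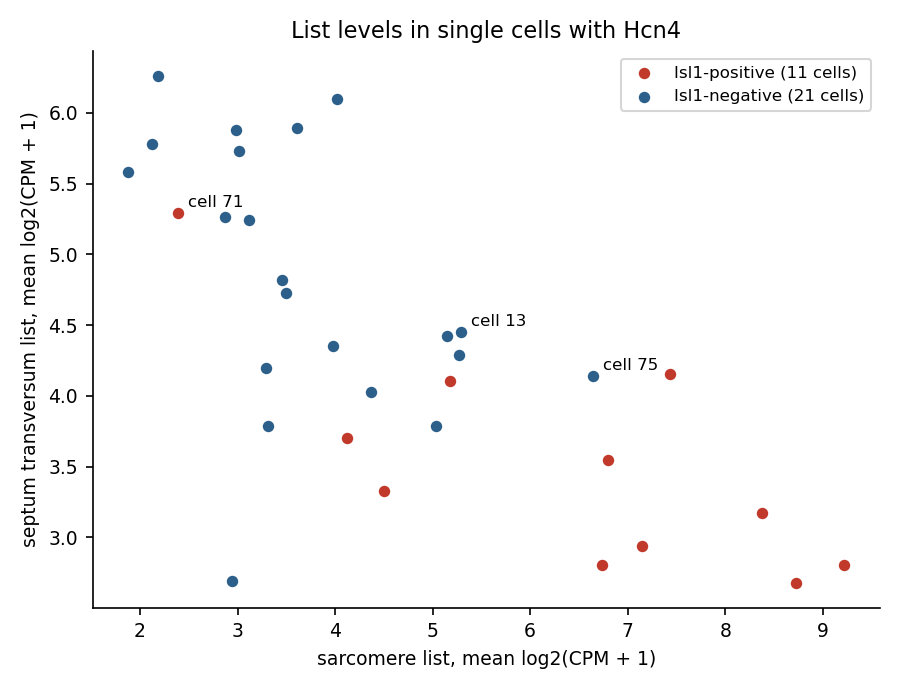
Each point is a cell with Hcn4, red for Isl1-positive and blue for Isl1-negative, placed by its mean log2(CPM + 1) over the sarcomere list (horizontal axis) and the septum transversum list (vertical axis). Cell 71 has the lowest sarcomere level (2.39) and the highest septum transversum level (5.29) of the positive cells, and cells 75 and 13 have the 2 highest sarcomere levels of the negative cells (6.64 and 5.29).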

How the data were processed

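RNA of single flow-sorted cells was amplified at full length (SMART-Seq) and sequenced. Per the labels, the authors deposited estimated counts per gene, not scaled for depth or length. Per the submitters' processing notes, kallisto (no version stated) and hg38 were used, whereas all gene identifiers are mouse Ensembl identifiers. The rounding of counts and their sum over transcripts are described in no source used here. Cells were sorted singly, and the presence of doublets was not tested. Symbols and positions came from GENCODE M21 (GRCm38). Of 30323 identifiers 29857 had a symbol, and the 466 without held 0.357% of counts. Among the genes tested, 52 rows shared all counts with another row.

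Counts were divided by the total of each cell, without further normalisation. The groups, the calls and the filter are as given in the results, with a pseudocount of 1 CPM, and levels of a list are means of log2(CPM + 1). A fold on this scale understates differences of low genes. The 25 lists (458 memberships, some genes in several lists) and the members were chosen with earlier results of these data known. Named by rule were Isl1, Hcn4 and Shox2, every tested pacemaker factor or channel gene, the 3 members of largest difference in every other list, the 15 genes called higher and the 15 called lower of largest fold at a mean of at least 20 CPM and found in at least 50% of the higher group, and the 10 transcription factors called in each direction of largest fold (families that include Tbx, Hox, Meis, Pbx, Lhx, Nkx, Irx, Pitx, Shox, Gata, Hand, Fox, Sox, Prrx, Msx, Hey, Hes, Id, Klf, Nr2f, Smad, Mef2, Zfpm, Snai, Twist, Tcf and Wt1). This gave 112 genes, some of which are not reported here. A further part of the rule, on cells under 1000 CPM Actc1, was void. Other genes with values were chosen after these were seen. List medians did not move when genes at 0 in 1 group were set to the level that 3 counts would give. Upper limits for genes found in no cell are 3 cells of the group. They are below the exact limits, which are 28.5% for 0 of 11 cells and 16.1% for 0 of 21. Promoters were taken from RefSeq (GRCm38.p6). Software was Python 3.11.15 with pandas 2.3.3, numpy 2.4.6, SciPy 1.17.1 and matplotlib 3.10.9. Size factors of the alternative came from scran 1.30.0 in R 4.3.3. Alternatives changed the Isl1 and Hcn4 limits, the pseudocount, the filter, the scaling, the summary of a group, the depth and the cells compared.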

Additional observations from a re-analysis of the deposited data

How the results depend on the processing

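The counts of 248 genes higher and 467 lower depended on the limits. With a pseudocount of 10 CPM 154 were higher and 181 lower, at a mean of at least 50 CPM 81 and 107, and with no filter on low values 455 and 944. Means of log2(CPM + 1) gave 492 and 1213, and median CPM gave 688 and 1357. With at least 1000 CPM Actc1 442 were higher, and in the band of 3000 to 13000 CPM 446. Among the 42 cells without Hcn4, 3 of them Isl1-positive, 68 were higher and 804 lower, with 2 and 55 of the genes called with Hcn4 among them. Leaving out each Isl1-positive cell in turn gave 212 to 285 higher and 430 to 605 lower. Isl1-positive at 1 count gave 263 and 362, and scran size factors 269 and 425. Thinning to 354002 counts per cell gave 240 and 438. It left out 8 of all 74 cells and compared 10 positive with 17 negative cells. The limits for Hcn4 (1 or 10 counts), a limit of 10 Isl1 counts, negative cells only at 0 Isl1 counts and leaving out rows that share all counts each gave between 248 and 280 higher and between 458 and 510 lower. The band, the comparison without cell 71 and the one without shared rows were added after the data were seen. Cells under 1000 CPM Actc1 held 1 Isl1-positive cell and gave no comparison. No paired analysis was possible because the cells form 1 sample and their replicate numbers only follow accession order.

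Called log2 differences of named genes that changed sign were as follows, and the cause was not tested. At 1000 CPM Actc1 or more they were Lhx2 0.44 and Fgf10 0.80. In the band they were Cacna1h -0.10, Ryr2 -0.15, Atp2a2 -0.0084, Lhx2 0.77, Lmo4 0.23, Cnn1 -0.56, Acta2 -0.15, Wnt2 -0.25, Fgf10 1.31, Nid1 1.29, Btg2 -0.77, Sox9 0.59 and Wt1 1.28. Among cells without Hcn4 they were Tbx3 -2.37, Hand1 1.38, Cacna1d -0.93, Cacna1h -0.76, Ryr2 -0.34, Apobec2 -1.47, Lhx2 1.73, Lrrn4 0.44, Cnn1 -2.54, Acta2 -0.17, Bmp4 -0.88, Id4 -0.26, Dkk1 1.70, Wnt2 -1.85, Fgfr2 1.04, Pbx3 0.036, Nid1 1.70, Tek 0.21, Btg2 -3.60, Ccng1 -0.44, Ramp1 -0.87, Thbs4 -3.70, Myh6 -0.23, Sorbs2 -1.45, Tnnc1 -1.37, Gnao1 -0.40, Efna1 -2.16, Actn2 -1.76, Fbn1 1.12, Tcf21 0.22, Lrrc3b 0.95, Sox9 0.058, Wt1 0.54, Tcf19 1.597 and Rgs4 -0.25. That comparison has 3 positive cells with 6 to 19 Isl1 counts. Precision is limited by 11 and 21 cells of 1 sample and by reads that are not independent molecules.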

Other observations

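Among the 99 genes called lower in all 3 nested comparisons, 17 did not overlap between 5 Isl1-positive and 4 Isl1-negative cells in the band of 3000 to 13000 CPM Actc1. Over all 8569 genes tested there, 0.945% did not overlap in that direction, and of the 449 genes called lower there 13.4%. All values here were picked after they were seen. Apoe, a lipid carrier, was at 0.764 ± 1.71 CPM (SD) in the positive and 63.5 ± 41.6 CPM in the negative cells of the band. Pcolce, an enhancer of procollagen processing, was at 75.8 ± 55.3 and 209 ± 20.8 CPM. The RNA helicase Ddx31 had no count in the 5 positive cells and 71.5 ± 13.2 CPM in the 4 negative cells. A second RNA helicase, Ddx54, was at 39.1 ± 35.1 and 179 ± 32.7 CPM, and Polr3d, a subunit of RNA polymerase III, at 17.2 ± 17.1 and 97.6 ± 16.7 CPM. Over all cells with Hcn4 the log2 differences of Ddx31, Ddx54 and Polr3d were -1.93, -1.44 and -1.39.

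Of the 62 genes called higher each time, 3 did not overlap in the band: Gnao1, B230217C12Rik and Vsnl1. Over all 8569 genes this share was 0.525%, and of the 446 called higher there 6.5%. Vsnl1, a calcium sensor protein, was at 83.0 ± 22.4 and 32.1 ± 22.5 CPM there. Its log2 difference over all cells was 1.27.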
